A study of Homo sapiens with 9 samples.

Results

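The extracellular matrix genes described here are 38 listed genes for collagens, laminins, matrix glycoproteins, crosslinking enzymes, and matrix proteases with their inhibitors. They were followed in PANC-1, a long-cultured human pancreatic carcinoma line of duct-like character. The groups were cells kept with BRD7552, a small molecule, at 5 uM for 72 h, cells kept with the same dose for 6 h, and cells given DMSO, the solvent, for a time the labels leave out. Each group had 3 arrays. All groups were the same cell line in culture, which holds none of the stroma of a tumour. RNA of each sample was hybridised to 1 Affymetrix expression array with 54675 probe sets, short groups of probes that each measure a transcript. Of the 38 genes, 37 had a probe set assigned to a single gene, with 107 probe sets in all, among 19775 genes so covered. LAMA3 was not analysed here. The brightest probe set stood for each gene, and 33 of the 37 lay above the filter on low values (a mean log2 signal of 4.15, or 17.8 on the linear scale, the median probe set). The other 4 genes, FN1, FBN1, FBN2 and LAMB3, were not tested.

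The matrix is laid down as a fibrillar network of collagens and glycoproteins and as a sheet-like basement membrane of laminins and type IV collagen. Lysyl oxidases and transglutaminases crosslink these proteins, and metalloproteases cut them under the control of the TIMP inhibitors. In pancreatic carcinoma a dense matrix surrounds the tumour, made by stromal fibroblasts and in part by the cancer cells themselves.

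Array medians of the linear signal lay between 16.2 and 18.8, and precision is limited by having 9 arrays. The upper quartile was 97.5 and 99.7 on replicates 2 and 3 at 72 h and 112 to 119 on the other 7 arrays. An RNA quality measure, the ACTB control signal near the 3' end over that near the 5' end, lay between 2.07 and 2.21 at 72 h, between 1.74 and 2.05 at 6 h and between 1.91 and 2.01 in DMSO, and its part in the results was not tested. All 7 duct-type epithelial markers lay above the filter. Their summed signal was 27466 to 29335 at 72 h, 34662 to 34787 at 6 h and 34306 to 35158 in DMSO. Of the 10 fibroblast and stellate cell markers 5 lay above the filter, with a summed signal of 173 to 245 at 72 h, 226 to 243 at 6 h and 216 to 229 in DMSO. PDGFRA, LUM, COL3A1 and COL1A2 were among those that lay below the filter, and the 5 above it were from PDGFRB, FAP, DCN, THY1, ACTA2 and DES. The endothelial markers had 1 of 5 above the filter, with a summed signal of 58.1 to 75.5 at 72 h, 55.3 to 61.2 at 6 h and 56.4 to 64.9 in DMSO. The leukocyte markers had 1 of 4 above it, with 39.3 to 52.6 at 72 h, 44.9 to 52.8 at 6 h and 55.1 to 58.9 in DMSO. Of the 5 fibroblast markers above the filter, the only ones tested, 0 passed at either time. Of the 7 duct markers 5 fell at 72 h, where 18.3% of all genes tested did. The part of these markers in the results was not tested. The same DMSO arrays served both comparisons with solvent, and time in culture cannot be told apart from exposure at 72 h. Nothing in the labels states whether the 3 samples of a group came from different cultures. The p-values therefore reflect only the spread between these samples, which may be technical.

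After 72 h, 16 of the 33 tested matrix genes were lower than in DMSO (limma, Benjamini-Hochberg adjusted p below 0.05 over all 12678 genes tested), 1 was higher, and 16 did not pass. This made 48.5% of members lower and 3.03% higher, where 18.3% of all genes tested were lower and 8.33% higher. The members were chosen with earlier results of these data known. The part of that choice in the contrasts with all genes, here and below, was not tested. The median log2 change of the 33 members was -0.33, against -0.062 over all genes. Of the members, 6 fell at least 2-fold, which 0.568% of all genes did. TNC, 1 of these 6, and LOX, among the 16 falls, lay below the filter level on all 3 arrays at 72 h. These 2 genes were tested only through their 6 h and DMSO arrays. The 3 arrays at 72 h lay wholly below those of DMSO for 18 members and wholly above for 2, LAMA5 and THBS1, where this held for 24.9% and 12% of all genes. By array, the members' median log2 difference from the DMSO mean was -0.31, -0.33 and -0.32 at 72 h, and -0.042, -0.0054 and 0.0048 at 6 h. Over all genes these medians were 0.0024, -0.12 and -0.059 at 72 h. By the median, the 3 arrays at 72 h lay lower for the members by nearly the same amount. By the mean, the members' differences at 72 h were -0.42, -0.49 and -0.48. The part of a shift over whole arrays in these values was not tested. With 72 h replicate 1 as the only array at 72 h, a choice made after seeing the data, 16 members were lower and 1 higher, while 8.09% of all genes were lower and 9.95% higher. Of the 16 falls, LAMA4 and TIMP2 did not pass in that fit, while MMP14 and COL6A3, which are not among the 16, did. After quantile normalization 16 members were lower and 3 higher, against 15.6% and 13.1% of all genes, and after cyclic loess the members' counts were the same, with 15.1% and 13.6% of all genes. The 72 h arrays varied more, with a median SD within the group of 0.129 on the log2 scale over all genes, against 0.0750 at 6 h and 0.0666 in DMSO. On simulated data with each group's own spread and 200 of 12678 genes changed, 34 of 148 calls at 72 h against DMSO were false. Between the times 31 of 150 were false. Both exceeded the share of 0.05 that the threshold aims at, so single calls at 72 h may be less sure than their adjusted p. In the data 3378 of 12678 genes were called at 72 h against DMSO. The false share depends on how many genes truly change, so the simulated shares cannot be carried over to these calls. With 1 weight per group, a fit added after seeing the data, the same 16 members were lower and LAMA5 higher, while 14.9% of all genes were lower and 6.21% higher.

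**Figure D1:**
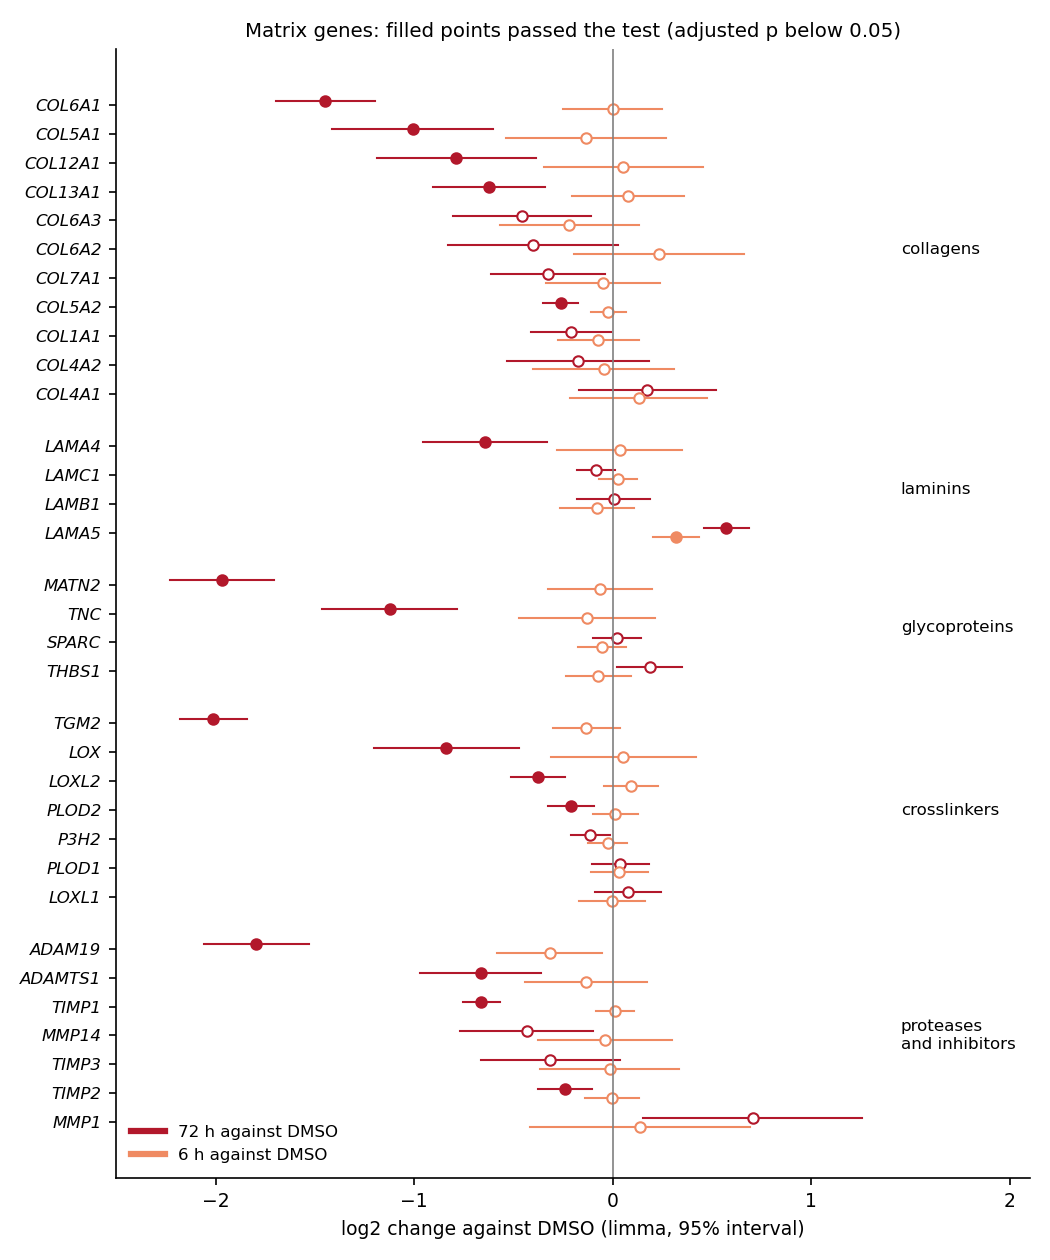
Log2 change against DMSO of the 33 tested matrix genes by class, at 72 h (dark red) and 6 h (orange), with 95% intervals of the limma estimate from 3 arrays per group. Filled points passed the test: 16 genes lower and LAMA5 higher at 72 h, and LAMA5 alone at 6 h.

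At 6 h the matrix genes held 1 call, the rise of LAMA5, where 0.363% of all genes were higher and 0.11% lower. The members' median log2 change was -0.015, against -0.00095 over all genes, and their range ran from -0.32 for ADAM19 to 0.32 for LAMA5. The number of members with an unadjusted p under 0.05 was 2, against 4.59% of all genes. By class the medians at 6 h were -0.022 for collagens, 0.030 for laminins, -0.069 for glycoproteins, 0.013 for crosslinkers and -0.015 for proteases and inhibitors. The LAMA5 call at 6 h ended in 6 of 23 alternative settings, which were arrays centred on their medians, no mean-variance trend, and the fits without DMSO replicate 2, DMSO replicate 3, 6 h replicate 1 or 6 h replicate 2.

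Between the times, 17 members were lower at 72 h than at 6 h and 2 were higher, where 16.7% of all genes were lower and 7.28% higher. The 2 higher genes were LAMA5 and THBS1. This comparison shares its 72 h arrays with the one against DMSO, so the counts are not independent.

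Among the collagens 5 of 11 (45.5%) fell at 72 h, where 18.3% of all genes did, and 6 did not pass. The largest fall was that of COL6A1, the alpha 1 chain of the beaded-filament collagen VI. Its signal was 90.2, 72.1 and 64.5 at 72 h, 201, 195 and 217 at 6 h and 189.5, 208 and 215 in DMSO. Every 72 h array lay below every other array, and the 6 h and DMSO arrays overlapped. The log2 change at 72 h was -1.45 (SE 0.117, adjusted p = 5.2e-07 by limma), a signal 2.73-fold lower. The 3 other COL6A1 probe sets above the filter were dimmer and stood at -0.49, -0.084 and -0.10, and none passed. With all its probe sets averaged COL6A1 stood at -0.31 and no longer passed (adjusted p = 0.0932, where its alternatives ran from 3.28e-08 to that value). The partner chains of collagen VI were near the filter. COL6A2 had 17.2 ± 5.24 at 72 h, 26.0 ± 3.91 at 6 h and 22.1 ± 2.50 in DMSO (SD, n = 3 each), and COL6A3 stood at -0.46 at 72 h without passing (adjusted p = 0.0514 by limma). Against DMSO, COL6A2 passed without 72 h replicate 3 (-0.63) and COL6A3 without 72 h replicate 2 (-0.61). COL6A3 also passed without a mean-variance trend and with the mean of all probe sets. COL6A2 passed as lower between the times (-0.63, adjusted p = 0.0322 by limma) and not against DMSO (-0.40), and the call between the times ended without 6 h replicate 1 or 2 or 72 h replicate 1 or 2, in all in 10 of the 22 alternative settings that measured it.

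Both listed chains of collagen V, which sets the width of collagen fibrils, fell to different degrees. COL5A1 had a signal of 25.9, 24.7 and 19.1 at 72 h, 31.0, 48.2 and 50.2 at 6 h and 41.3, 45.2 and 53.3 in DMSO. The 72 h arrays lay below all others, while 6 h replicate 1 lay below the DMSO range. Its log2 change at 72 h was -1.01 (SE 0.190, adjusted p = 0.00113 by limma), and its other probe set above the filter stood at -0.94 and also passed. COL5A2 had 1352, 1310.0 and 1385 at 72 h, 1571, 1612 and 1597 at 6 h and 1622, 1569 and 1662 in DMSO. Its fall was small (-0.26, SE 0.0409) and again without overlap, and its other probe set stood at -0.16 without passing. A further chain of collagen V, COL5A3, is on one of the other lists and is named here after its value was seen. It stood at 0.063 at 72 h and did not pass. COL12A1, a collagen associated with fibril surfaces, fell by 0.79 on the log2 scale (SE 0.188), with 22.4 ± 6.76 at 72 h, 39.3 ± 5.63 at 6 h and 37.6 ± 1.50 in DMSO (SD, n = 3 each). COL13A1, a transmembrane collagen, fell by 0.62 (SE 0.131), with 42.4 ± 3.84 at 72 h, 69.0 ± 9.56 at 6 h and 65.0 ± 2.64 in DMSO. The 2 other COL13A1 probe sets stood at -0.28 and -0.22 and did not pass.

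The probe sets used for COL1A1, COL4A1, COL4A2, COL6A3 and COL7A1 did not pass in any of the comparisons. For COL1A1, the alpha 1 chain of collagen I, the probe sets disagreed. The brightest had 526 ± 73.7 at 72 h, 576 ± 52.1 at 6 h and 605 ± 46.3 in DMSO (SD, n = 3 each) and a log2 change at 72 h of -0.21 (95% interval -0.41 to -0.0063, adjusted p = 0.123 by limma). Of its 4 other probe sets, those above the filter stood at 0.17 and -0.39. The brightest passed without 72 h replicate 1 (-0.29) and stood at -0.089 without 72 h replicate 3. COL4A1 and COL4A2, which form the collagen network of basement membranes and lie head to head in the genome, were near the filter. COL4A1 had 21.4 ± 3.99 at 72 h, 20.7 ± 2.50 at 6 h and 18.8 ± 0.586 in DMSO, a log2 change at 72 h of 0.17 (interval -0.17 to 0.52). COL4A2 had 20.0 ± 2.99 at 72 h, 21.8 ± 2.59 at 6 h and 22.6 ± 3.57 in DMSO, a change of -0.17 (interval -0.53 to 0.18). The arrays of the groups overlapped for both genes. COL7A1, the anchoring fibril collagen, stood at -0.33 (adjusted p = 0.0898 by limma), and its second probe set at -0.49. It passed as lower without 72 h replicate 3 (-0.46), with the mean of its probe sets (-0.41) and with the probe set of largest variance (-0.49), and stood at -0.19 without 72 h replicate 2. The second probe set was also lower at 72 h than at 6 h in the fit over all probe sets (-0.54, adjusted p = 0.0453 by limma).

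The laminin alpha chains moved in opposite directions while the beta 1 and gamma 1 chains did not pass. Laminins are trimers of an alpha, a beta and a gamma chain. LAMA5, the alpha 5 chain typical of epithelial basement membranes, had a signal of 619.6, 623 and 626 at 72 h, 542, 516 and 509 at 6 h and 431, 418 and 407 in DMSO. The 3 groups were fully separate, with DMSO lowest and 72 h highest. The log2 change was 0.57 at 72 h (SE 0.0537, adjusted p = 2.29e-06 by limma) and 0.32 at 6 h (adjusted p = 0.0117), and the difference between the times was 0.25 (adjusted p = 0.00315). This gene has 1 probe set of its own, and the rise at 72 h passed in all 23 alternative settings. In the fit over all probe sets the rise at 6 h did not pass (adjusted p = 0.0958). LAMA4, an alpha chain typical of mesenchymal and vascular basement membranes, had 69.5, 48.6 and 49.7 at 72 h, 80.4, 85.1 and 100.5 at 6 h and 80.4, 91.6 and 86.9 in DMSO. Its arrays at 72 h lay below all others, by a log2 change of -0.64 (SE 0.147, adjusted p = 0.00442 by limma), and replicate 1 lay nearest to DMSO. On that array alone the change was -0.31 and did not pass. The other LAMA4 probe sets above the filter stood at -0.59 and -0.28 without passing. LAMB1, the beta 1 chain, had 648 ± 60.4 at 72 h, 612 ± 71.2 at 6 h and 645 ± 46.0 in DMSO (SD, n = 3 each), with an interval of -0.18 to 0.19 for the log2 change at 72 h. LAMC1, the gamma 1 chain, had 1148 ± 20.1 at 72 h, 1237 ± 47.4 at 6 h and 1216 ± 36.9 in DMSO, a change of -0.083 with an interval of -0.18 to 0.013. Every LAMC1 array at 72 h lay below every other array, though the gene did not pass. LAMB3, the beta 3 chain of epithelial laminin, lay below the filter with a mean signal of 12.3.

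**Figure D2:**
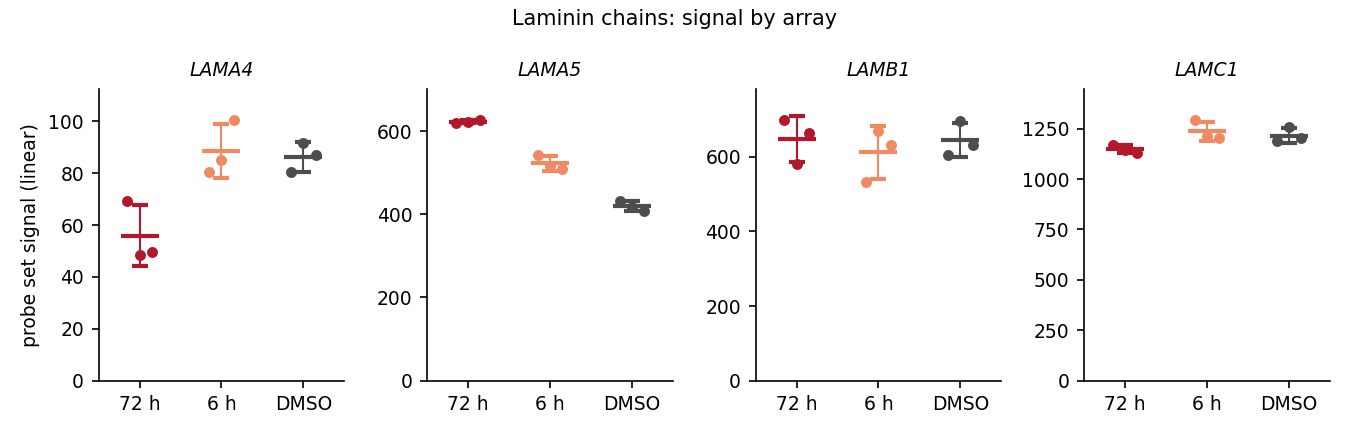
Linear probe set signal of the 4 tested laminin chains by array (points, 3 per group) with the mean and SD (bars), at 72 h, at 6 h and in DMSO. LAMA5 stands highest at 72 h and lowest in DMSO with no overlap, LAMA4 is lower at 72 h, and the LAMB1 groups overlap. LAMC1 arrays at 72 h lie below all others by a small amount that did not pass.

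Of the matrix glycoproteins, 2 of 4 tested genes fell by over 2-fold, where 0.568% of all genes fell at least 2-fold. MATN2, matrilin 2, an adaptor of matrix filaments, had a signal of 43.7, 33.5 and 36.2 at 72 h, 131, 141 and 149 at 6 h and 141, 161 and 139.7 in DMSO. The 72 h arrays stood far below all others, and the 6 h arrays overlapped those of DMSO. Its log2 change at 72 h was -1.97 (SE 0.123, adjusted p = 3.28e-08 by limma), 3.90-fold lower, and its second probe set lay below the filter. TNC, tenascin C, an anti-adhesive glycoprotein of wounds and tumours, had 15.1, 16.03 and 11.8 at 72 h, 26.9, 30.8 and 27.3 at 6 h and 26.9, 31.7 and 34.6 in DMSO. Its change was -1.12 (SE 0.160, adjusted p = 0.000109 by limma), with the 72 h arrays below the others and below the filter level.

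SPARC and THBS1 gave results that depended on the probe set. SPARC, a collagen-binding protein, had 1490 ± 131 at 72 h, 1410 ± 53.4 at 6 h and 1466 ± 24.4 in DMSO (SD, n = 3 each) by its brightest probe set, a change of 0.020 at 72 h with an interval of -0.10 to 0.14. Its dimmer probe set stood at -0.30 (adjusted p = 0.0521 by limma over all probe sets), and passed as lower in the fit that took the probe set with the largest variance for each gene. THBS1, thrombospondin 1, had 579, 578 and 616 at 72 h, 432, 535 and 521 at 6 h and 516, 551 and 491 in DMSO by its brightest probe set. The 72 h arrays lay above both other groups, with a change of 0.19 against DMSO (adjusted p = 0.0871 by limma) and of 0.26 against 6 h (adjusted p = 0.0231). Its difference from DMSO passed as higher without 6 h replicate 1, with only the 2 groups fitted, with quantile normalization and with cyclic loess, and the probe set with the largest variance passed as lower (-0.48). The other THBS1 probe sets above the filter stood at -0.20, -0.30, 0.23 and -0.48 at 72 h against DMSO, and none passed in the fit over all probe sets. The call against 6 h ended in 10 of 23 alternative settings, among them those without 6 h replicate 1, without 72 h replicate 2, without 72 h replicate 3 and with 72 h replicate 1 alone. FN1, fibronectin, had 7 probe sets, all of them below the filter, with geometric mean signals of 6.43 to 13.9, and so did the 3 probe sets each of the fibrillins FBN1 and FBN2.

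**Figure D3:**
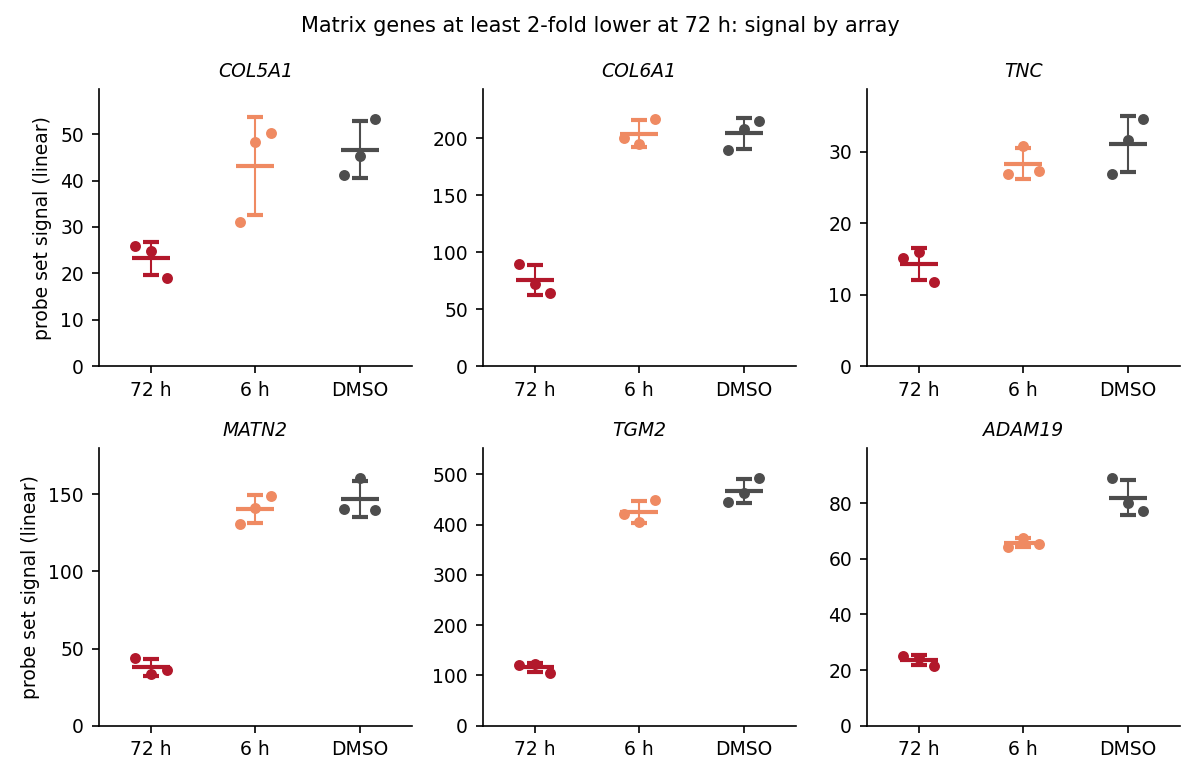
Linear probe set signal by array (points, 3 per group) with mean and SD (bars) of the 6 matrix genes that fell at least 2-fold at 72 h against DMSO. In each panel the 3 arrays at 72 h lie below every array at 6 h and in DMSO, and for ADAM19 the 6 h arrays also lie below DMSO.

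Among the crosslinking and modifying enzymes 4 of 7 (57.1%) fell at 72 h, where 18.3% of all genes did. TGM2, a transglutaminase that joins glutamine and lysine side chains, showed the largest fall of all members. Its signal was 121, 122 and 105 at 72 h, 422, 406 and 449 at 6 h and 445, 463 and 493 in DMSO. The 72 h arrays stood well below the rest, while 6 h and DMSO arrays overlapped. The log2 change was -2.01 (SE 0.0788, adjusted p = 2.44e-10 by limma), 4.03-fold lower, and of its 3 other probe sets those at -1.63 and -1.58 passed and a dim one at -0.31 did not. LOX, lysyl oxidase, had 14.7, 14.5 and 9.88 at 72 h, 21.2, 24.4 and 25.9 at 6 h and 21.4, 24.0 and 23.5 in DMSO, a change of -0.84 (SE 0.171) close to the filter level. The LOX arrays at 72 h lay below that level, so LOX was tested only through its 6 h and DMSO arrays. LOXL2, its relative that acts on collagen IV, had 412, 406 and 398 at 72 h, 590.0, 550.0 and 544 at 6 h and 482, 552 and 548 in DMSO, a change of -0.38 (SE 0.0641, adjusted p = 0.000526 by limma). LOX and LOXL2 arrays at 72 h lay below all others. The other LOXL2 probe set above the filter stood at -0.26 without passing, and the LOXL2 call ended with the mean of all probe sets (-0.14) and with the probe set of largest variance (-0.26). LOXL1, the lysyl oxidase tied to elastic fibres, had 205 ± 7.60 at 72 h, 194 ± 4.77 at 6 h and 194 ± 6.42 in DMSO (SD, n = 3 each), with an interval of -0.087 to 0.24 for its log2 change.

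The collagen lysyl hydroxylases differed in outcome. PLOD2, which hydroxylates the telopeptides used for stable crosslinks, had 1972, 2001 and 2143 at 72 h, 2219, 2419 and 2504 at 6 h and 2235, 2507 and 2337 in DMSO. It fell by 0.21 on the log2 scale (SE 0.0534), its second probe set fell by 0.27 and passed too, and the call of the brightest ended with each array centred on its median and without a mean-variance trend. PLOD1, which acts on the helix, stood at 0.039 with an interval of -0.11 to 0.18. P3H2, a prolyl 3-hydroxylase, stood at -0.11 (adjusted p = 0.0881 by limma) and did not pass, though its 72 h arrays lay below all others. Whether these changes differ from each other was not tested.

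Of the proteases and inhibitors 4 of 7 (57.1%) fell at 72 h, where 18.3% of all genes did. ADAM19, a membrane metalloprotease, had a signal of 25.1, 24.3 and 21.5 at 72 h, 64.2, 67.5 and 65.5 at 6 h and 89.0, 80.0 and 77.0 in DMSO. The groups were fully separate, lowest at 72 h. Its log2 change at 72 h was -1.79 (SE 0.124, adjusted p = 1e-07 by limma), and at 6 h it was -0.32 (adjusted p = 0.828) and did not pass. Its other probe set stood at 0.27 at 72 h, with a mean signal of 18.7, and did not pass. ADAMTS1, a secreted protease of proteoglycans, had 19.2, 19.4 and 20.1 at 72 h, 26.0, 31.2 and 27.7 at 6 h and 26.8, 34.1 and 32.5 in DMSO, a change of -0.66 (SE 0.144) with no overlap.

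TIMP1, a secreted inhibitor of metalloproteases, had a signal of 1861, 1879.5 and 1809 at 72 h, 3097, 2872 and 2887 at 6 h and 2868, 2827 and 3095 in DMSO. Every array at 72 h lay below every other array, at 63.2% of the DMSO level in the means of log2 values, a log2 change of -0.66 (SE 0.0439, adjusted p = 6.49e-08 by limma). TIMP2, which also takes part in activating pro-MMP2, had 529, 521 and 446 at 72 h, 579, 590 and 589 at 6 h and 598, 580.3 and 583.5 in DMSO. It fell by 0.24 on the log2 scale (SE 0.0642, adjusted p = 0.0117 by limma). Its other probe sets fell further, by 0.42 and 0.69, and both passed. The call of the brightest one ended with arrays centred on their medians and with replicate 1 as the only array at 72 h. TIMP3, an inhibitor that binds to the matrix, had 32.1 ± 4.87 at 72 h, 39.2 ± 1.08 at 6 h and 40.2 ± 7.97 in DMSO (SD, n = 3 each) and did not pass (-0.31, interval -0.67 to 0.036), but passed without DMSO replicate 2 (-0.49).

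The collagenase MMP1 had the widest spread of the tested members at 72 h on the log2 scale (SD 0.688). Its signal was 81.4, 97.5 and 201 at 72 h, 65.3, 73.3 and 102 at 6 h and 75.1, 60.1 and 81.4 in DMSO. Replicate 3 at 72 h was high and replicate 1 equalled the highest DMSO array. The log2 change at 72 h was 0.71 (SE 0.259, adjusted p = 0.0567 by limma) and did not pass. It did pass with arrays centred on their medians, quantile normalization, cyclic loess, the stricter filter, array weights, the replicate block and without 72 h replicate 1 (0.97). Without 72 h replicate 3 the change was 0.32. MMP14, a membrane-bound protease that activates pro-MMP2, had 56.2, 43.98 and 71.5 at 72 h, 74.5, 71.7 and 74.96 at 6 h and 86.4, 71.5 and 70.4 in DMSO, and did not pass (-0.43, adjusted p = 0.0547 by limma). It passed without 72 h replicate 3 (-0.61), with the stricter filter and with array weights, and stood at -0.26 without 72 h replicate 2.

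**Figure D4:**
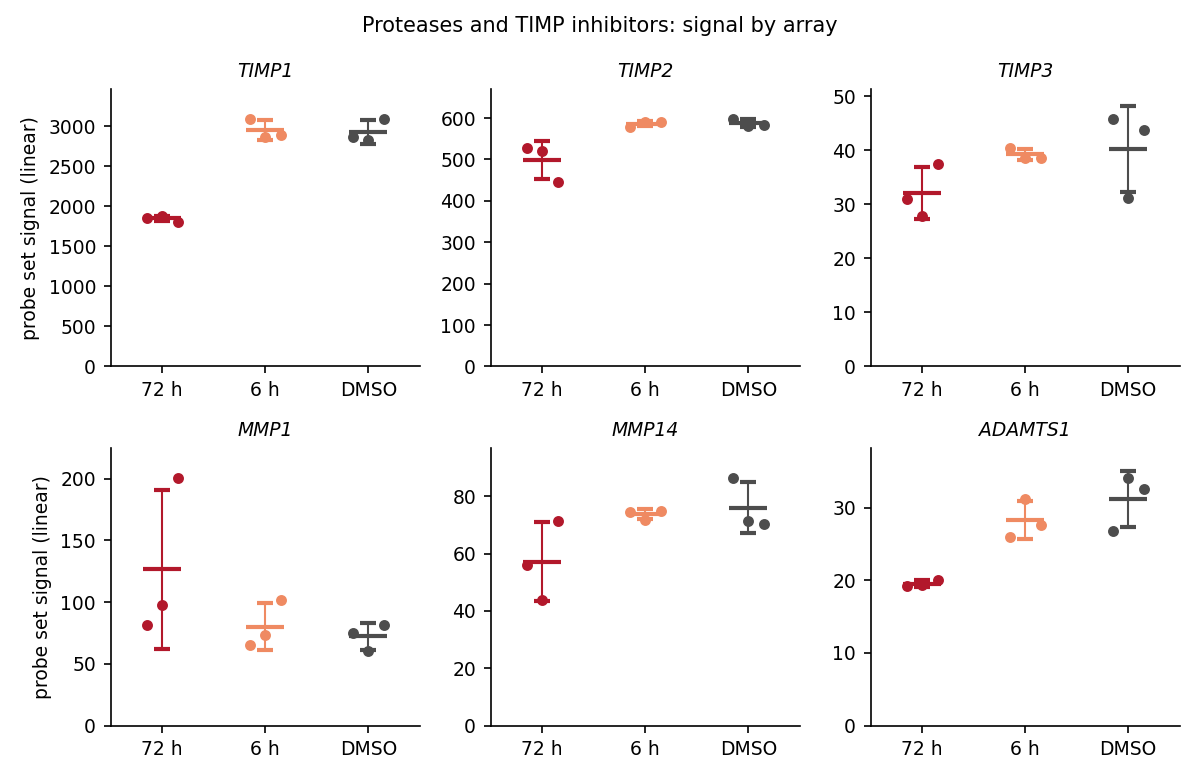
Linear probe set signal by array (points, 3 per group) with mean and SD (bars) for 3 TIMP inhibitors and 3 proteases. TIMP1, TIMP2 and ADAMTS1 are lower on all 3 arrays at 72 h, while TIMP3, MMP1 and MMP14 overlap with DMSO.

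Across all 107 probe sets of the 37 genes, 64 lay above the filter. In a fit over all probe sets of the table, 22 of the 107 were lower at 72 h and 1 was higher, where 5.38% of all 54675 probe sets were lower and 2.05% higher. Of the 16 genes that fell, 10 had further probe sets above the filter, 17 in all. Of these 17, 16 stood below 0 and 1, that of ADAM19, above 0. The 17 belong to genes already called lower by another probe set, and the share below 0 over all probe sets was not counted. Passing probe sets numbered 6, from the 4 genes COL5A1, TGM2, PLOD2 and TIMP2. The other 6 of the 16 genes, COL12A1, TNC, MATN2, LOX, ADAMTS1 and TIMP1, had no second probe set above the filter.

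**Figure D5:**
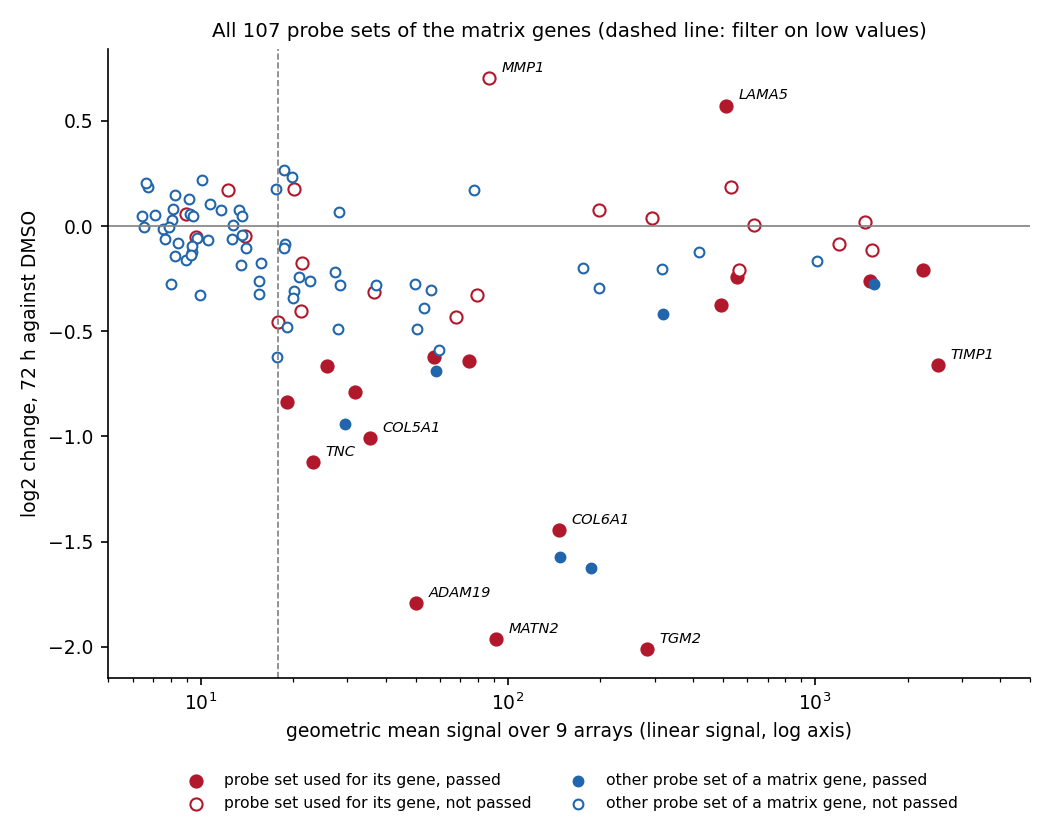
Log2 change at 72 h against DMSO of all 107 probe sets of the matrix genes against their geometric mean signal over 9 arrays (linear signal, log axis). Red points are the probe sets used for their genes, blue points the others, and filled points passed in the fit over all probe sets. Points left of the dashed filter line at 17.8 lie between -0.62 and 0.22.

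The stretches of 250 bases before the start site are shown for the genes that fell at least 2-fold and have an entry in the RefSeq promoter table (TNC, COL5A1 and ADAM19) and for the laminin alpha chains with opposite changes. Of the 37 genes 28 had an entry, and the sequences are those of RefSeq on GRCh38.p14, written 5′ to 3′ on the strand of the gene. Capitals mark matches on either strand to GGGCGG (GC box), the only one of the searched motifs found in them.
TNC (chr9:115118158-115118407, minus strand): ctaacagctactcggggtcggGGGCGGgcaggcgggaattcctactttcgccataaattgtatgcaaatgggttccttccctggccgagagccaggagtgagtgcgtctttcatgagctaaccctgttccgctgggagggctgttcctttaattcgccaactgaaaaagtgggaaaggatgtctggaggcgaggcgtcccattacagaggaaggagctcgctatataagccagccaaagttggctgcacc
COL5A1 (chr9:134641553-134641802, plus strand): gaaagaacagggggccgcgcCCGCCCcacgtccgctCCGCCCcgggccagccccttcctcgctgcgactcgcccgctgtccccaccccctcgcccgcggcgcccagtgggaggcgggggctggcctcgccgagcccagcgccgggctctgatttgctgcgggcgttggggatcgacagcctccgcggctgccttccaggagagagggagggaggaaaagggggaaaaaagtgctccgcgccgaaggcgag
ADAM19 (chr5:157575776-157576025, minus strand): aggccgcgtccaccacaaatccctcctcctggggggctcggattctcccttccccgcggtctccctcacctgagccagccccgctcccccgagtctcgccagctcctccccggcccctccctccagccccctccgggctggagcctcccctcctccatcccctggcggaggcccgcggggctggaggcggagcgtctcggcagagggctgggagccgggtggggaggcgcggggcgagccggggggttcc
LAMA4 (chr6:112254568-112254817, minus strand): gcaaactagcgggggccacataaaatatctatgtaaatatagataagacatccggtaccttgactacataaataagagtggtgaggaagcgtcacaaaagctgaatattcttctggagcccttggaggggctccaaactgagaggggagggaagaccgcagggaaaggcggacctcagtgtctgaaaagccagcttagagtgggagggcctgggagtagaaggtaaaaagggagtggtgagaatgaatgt
LAMA5 (chr20:62367313-62367562, minus strand): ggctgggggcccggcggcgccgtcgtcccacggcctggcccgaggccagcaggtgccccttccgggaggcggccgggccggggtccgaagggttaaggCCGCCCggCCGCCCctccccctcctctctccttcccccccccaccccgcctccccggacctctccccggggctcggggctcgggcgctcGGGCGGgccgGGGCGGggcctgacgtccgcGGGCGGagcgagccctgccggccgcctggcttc
The GC box letters occur 5 times before LAMA5, at 152, 144, 63, 53 and 33 bases before the start, 2 times before COL5A1 and 1 time before TNC. The letters were in 42.6% of all 35116 windows of this length, in 20 of the 28 member windows, in 6 of the 9 that belong to genes that fell and in 11 of the 15 that belong to tested genes that did not fall. The other letters searched were TGANTCA (AP-1), GGAATG (TEAD), TATAAA and CCAAT, on both strands. AP-1 letters were in 0 of 28 member windows, against 6.57% of all windows, and TEAD letters in 4 of 28, against 11.9%. TATAAA was in 3 of 28, against 10.7%, and CCAAT in 10 of 28, against 32% of all windows. A match is a description of the letters and not of binding.

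Other genes of the matrix and its receptors were taken from 6 lists with 183 genes, of which 109 were tested. Of these, 29 fell at 72 h and 7 rose, which is 26.6% and 6.42%, against 18.3% and 8.33% of all genes. At 6 h limma called 0 of the 109, where 0.473% of all genes were called. An unadjusted p under 0.05 was held by 2 of them, against 4.59% of all genes.

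Of the 21 tested enzymes and helpers that fold, modify and process collagen, 9 fell and 1 rose. These are 42.9% and 4.76%, against 18.3% and 8.33% of all genes. The gene that rose was P3H4 (0.24), named after its value was seen. P4HA2, a subunit of collagen prolyl 4-hydroxylase, had 256 ± 48.7 at 72 h against 460.4 ± 8.55 in DMSO (SD, n = 3 each), a change of -0.86 (SE 0.0978). PCOLCE2, an enhancer of procollagen cleavage, stood at -0.78, LOXL4 at -0.47, P4HA3 at -0.43, CRTAP, a partner of prolyl 3-hydroxylase, at -0.40 and PLOD3, a lysyl hydroxylase, at -0.32, all passing. Against 18.3% and 8.33% of all genes, 7 (26.9%) of the 26 other glycoproteins and proteoglycans fell and 0 rose. They included EFEMP1, a fibulin (-0.94), MFAP2, a microfibril protein (-0.80), CCN2, a matricellular protein (-0.60), EMILIN2 (-0.54), LTBP1, which anchors latent TGF-beta (-0.51), and MFAP3 (-0.23).

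Of the 23 other proteases and inhibitors 4 fell and 2 rose, 17.4% and 8.70%, close to the shares over all genes of 18.3% and 8.33%. MMP7, matrilysin, had 32.2 ± 6.17 at 72 h against 78.0 ± 12.7 in DMSO (SD, n = 3 each), a change of -1.28 (SE 0.158). CTSL, the lysosomal and secreted cathepsin L, fell by 0.85 on the log2 scale, ADAMTS15 by 0.66 and MMP9, a gelatinase, by 0.59. The sheddases ADAM9 and ADAM10 rose by 0.23 and 0.19. Of the 10 other collagens 2 rose (20%, against 8.33% of all genes) and 0 fell. COL9A3, a chain of the cartilage collagen IX, had 139 ± 29.7 at 72 h against 68.3 ± 6.78 in DMSO (SD, n = 3 each), a rise of 1.01 (SE 0.147), and COL18A1, a basement membrane collagen, rose by 0.14.

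Of the 9 other laminins and basement membrane proteins 2 fell and 1 rose, 22.2% and 11.1%, near the shares over all genes of 18.3% and 8.33%. NTN1, netrin 1, rose by 0.77, LAMC3, the gamma 3 chain, fell by 0.59 and NTN4, a laminin-binding netrin, by 0.31. Of 20 matrix receptors 7 fell and 1 rose, 35% and 5%, against 18.3% and 8.33% of all genes. ITGB3, the integrin beta 3 chain, fell by 0.80 on the log2 scale, the syndecans SDC3 and SDC1 by 0.44 and 0.36, BCAM, a receptor of laminin alpha 5, by 0.44, and the integrin alpha chains ITGA3 and ITGA5, which pair in receptors of laminin and of fibronectin, by 0.37 and 0.29. ITGAV was the receptor gene that rose, by 0.23, and was chosen after its value was seen.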

How the data were processed

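RNA of 9 samples of PANC-1 cells was measured on 9 arrays, 3 per group. The intensity values are the authors' deposited probe set signals on a linear scale (4.54 to 25052), made with MAS5 per the submitters' processing notes. Not given in the sources used here: the scaling target, later steps and the software version. Equal values on at least 2 arrays were found for 59.2% of probe sets and for 57 of the 107 probe sets of the matrix genes. Of the probe sets 41097 had 1 gene symbol, 1801 several and 11777 none, and those with several or none were left out of the fit over genes.

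Signals were taken to log2 and fitted with limma 3.58.1 in R 4.3.3 (lmFit, eBayes with a mean-variance trend) over all 9 arrays, with 6 residual degrees of freedom. The fit used the brightest probe set of each gene and the 12678 genes with a mean log2 signal of at least 4.15, and p-values were Benjamini-Hochberg adjusted over them. A second fit covered all 54675 probe sets and was adjusted over those. A gene was called at an adjusted p below 0.05. The script was tested on simulated data, where most of the largest changes were found, most of the smallest were missed, and false calls stayed within the threshold's share at 6 h but exceeded it in both comparisons with the more variable 72 h arrays. With 1 weight per group, an alternative added after seeing the data, such calls were fewer at 72 h, with 18 of 109 against DMSO. They were still above that share there, and above it at 6 h, with 28 of 164. Replicate numbers came from the labels. All 38 matrix genes are named. Of the other lists, up to 6 called genes per list with the largest change at 72 h are named. The members and lists were chosen with earlier results of these data known. The alternatives tried were other normalizations, filters, offsets and probe set rules, array weights, 1 weight per group, the replicate block and leaving out arrays.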

Additional observations from a re-analysis of the deposited data

How the results depend on the processing

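The 16 falls at 72 h against DMSO stayed within 1.5 times that number in every alternative tried, with 16 to 19 when 1 array was left out. Of the 16 genes, 9 passed in every setting that measured them, while 7 were lost in some. COL5A1, MATN2, TGM2, ADAM19 and TIMP1 passed in all 23 settings. TNC, LOX and ADAMTS1 were not measured with the stricter filter or the mean of all probe sets, and COL12A1 was not measured with the latter. Averaging all probe sets of a gene gave 11 falls at 72 h among 26 tested members, against 33, and 9 between 72 h and 6 h. The single rise at 72 h became 2 with median centring, the stricter filter, only 2 groups fitted, array weights and the replicate block, 3 with quantile normalization and cyclic loess, and 1 to 2 when 1 array was left out. The 6 h rise became 0 with median centring and without a mean-variance trend, and 0 to 1 when 1 array was left out. The 2 rises between the times became 1 with median centring, no trend, both other probe set rules, array weights, 1 weight per group and replicate 1 alone at 72 h, and 1 to 3 when 1 array was left out, where falls ran from 14 to 19. The cause of these changes was not tested. Signs turned for genes whose brightest probe set had not passed against DMSO at 72 h, and for THBS1 against 6 h. COL1A1 stood at 0.17 with the probe set of largest variance and COL4A2 at 0.064 with replicate 1 alone at 72 h. LAMB1 stood at -0.10 (mean of probe sets), -0.21 (largest variance) and ran from -0.051 to 0.082 when 1 array was left out, below 0 without DMSO replicate 1 (-0.039), DMSO replicate 3 (-0.0071), 72 h replicate 1 (-0.051) or 72 h replicate 3 (-0.016). THBS1 stood at -0.13 and -0.48 against DMSO and at -0.083 and -0.32 against 6 h under the mean and the largest variance, and the -0.48 passed as a fall. SPARC stood at -0.14 and -0.30 under the same rules, of which -0.30 passed as a fall, and ran from -0.030 to 0.094 when 1 array was left out, below 0 without 72 h replicate 1 (-0.0024) or 2 (-0.030). With the replicate block, 16 members were lower and 2 higher at 72 h, 1 was higher at 6 h, and 17 were lower and 3 higher between the times. Same-numbered arrays deviated together with r of -0.26 to 0.20, and arrays of different numbers with r of -0.32 to 0.36. Being taken from deviations around means of 3 arrays, these values cannot tell whether same-numbered arrays share a culture or batch. The labels do not say. Members near the filter (COL4A1, COL4A2, COL6A2, COL6A3, LOX, TNC) have signals close to those of undetected probe sets, which limits how small a change can be seen.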
